A study of Mus musculus with 2 samples.

Results

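The Parp family was followed through 10 genes, Parp1, Parp2, Parp3, Parp4, Parp6, Parp8, Parp9, Parp12, Parp14 and Parp16, chosen by symbol from every probe set that the platform annotation gives to a single gene. They made up 10 of 18193 measured genes and 19 of 34945 probe sets. RNA came from mouse embryonic stem cells, which are pluripotent cells of the early embryo, of strain C57BL/6. Both cultures started from embryos at 3.5 days post coitum, were between passages 15 and 18, had been kept with LIF on fibroblast feeders, and then spent 2 passages without feeders. The labels give the genotype of the first as MOF +/+ (wild type) and of the second as MOF-/- (Mof null), Mof (Kat8) being a histone H4 acetyltransferase. Each was hybridised to 1 array, which leaves every difference below without replicate error or test, and the labels do not say whether a line was a single clone.

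PARP proteins take ADP-ribose from NAD+ and attach it to proteins or nucleic acids, as chains or as single units. Parp1 and Parp2 build chains at DNA breaks and so recruit repair factors, and Parp3 attaches single units at double-strand breaks. Parp9, Parp12 and Parp14 are induced by interferon and act in antiviral and immune signalling. Most other members attach single units, and their roles range from the vault particle (Parp4) to the endoplasmic reticulum membrane (Parp16).

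The arrays are called here the wild-type array and the null array, after their labels. All values are RMA values on a log2 scale, a difference is null minus wild type, and a gene is represented by its brightest probe set. A gene was called expressed when its higher value reached 6.02, the median of all values. The arrays spanned 2.77 to 14.6 and 2.85 to 14.7. The targeted gene Kat8 read 8.06 on the wild-type array and 8.37 on the null array. The labels do not say which part of the gene was deleted, so this reading does not check them, and every direction below depends on their being right. The only measurable spread was that among the probe sets of a gene, with a pooled SD of 0.33 log2 units over 5362 genes; it holds no variation between cultures. The stem cell markers were all present, the 10 listed genes reading 9.96 to 13.8 and 10.4 to 14.2. All 10 were higher on the null array, by 0.42 to 1.52 with a median of 0.67. Past 2-fold was 1 of them, against 5.09% of expressed genes. Markers of other cell types also differed between the arrays. Of all expressed genes 11.9% were at least 2-fold lower. Of 12 fibroblast markers 11 were at least 2-fold lower on the null array, with a median difference of -2.09 and a log2 summed level of 16.5 against 15.0, and none fell below the expression threshold. All 10 macrophage markers were past 2-fold lower (median -2.08), with a log2 summed level of 13.7 against 11.6; Ptprc and Itgam were below the threshold on the null array. Of 9 expressed markers of extraembryonic endoderm 5 were at least 2-fold higher, against 5.09% of expressed genes, with a median of 1.08. Their log2 summed level was 14.42 against 14.45, and Sparc, the brightest of them, was lower, at -0.51. Cell composition was not measured, so fewer cells of a type and less RNA per cell cannot be told apart.

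The DNA upstream of annotated transcript starts is shown first, since neighbours and members that share DNA or motifs are compared later. A promoter window here is the 250 bases before a RefSeq transcript start (assembly GRCm38.p6), and 8 of the 10 members had such a window, all but Parp9 and Parp14. The windows are written 5′ to 3′ on the gene's own strand, and capitals mark matches on either strand to 7 motifs. The motifs were the interferon-stimulated response element (GAAA, any 2 bases, GAAA), the gamma-activated site TTCNNNGAA, the GC box GGGCGG, the CCAAT box CCAAT, the E-box CACGTG, the cAMP response element half-site TGACGT and the TATA box TATAAA. The DNA repair members Parp1 (chr1:180568641-180568890, plus strand), Parp2 (chr14:50807666-50807915, plus strand) and Parp3 (chr9:106476950-106477199, minus strand) are shown because they lay on opposite sides of 0. Parp12 (chr6:39118350-39118599, minus strand) is the interferon-linked member with a window, and Parp4 (chr14:56575369-56575618, plus strand) is the member with interferon response element letters.
Parp1: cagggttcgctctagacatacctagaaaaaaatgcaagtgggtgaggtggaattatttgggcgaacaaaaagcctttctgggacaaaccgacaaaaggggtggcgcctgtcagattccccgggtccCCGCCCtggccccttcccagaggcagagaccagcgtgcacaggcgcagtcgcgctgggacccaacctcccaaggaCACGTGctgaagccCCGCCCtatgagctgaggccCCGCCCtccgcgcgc
Parp2: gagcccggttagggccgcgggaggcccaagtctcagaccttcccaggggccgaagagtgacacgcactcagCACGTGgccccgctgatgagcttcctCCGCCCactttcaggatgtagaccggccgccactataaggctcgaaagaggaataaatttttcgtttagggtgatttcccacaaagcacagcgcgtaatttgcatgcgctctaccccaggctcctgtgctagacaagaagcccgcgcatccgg
Parp3: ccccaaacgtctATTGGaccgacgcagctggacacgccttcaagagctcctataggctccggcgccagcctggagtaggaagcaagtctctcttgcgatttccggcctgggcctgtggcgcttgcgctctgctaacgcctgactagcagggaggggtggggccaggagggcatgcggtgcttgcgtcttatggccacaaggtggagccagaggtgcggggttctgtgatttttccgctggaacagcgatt
Parp12: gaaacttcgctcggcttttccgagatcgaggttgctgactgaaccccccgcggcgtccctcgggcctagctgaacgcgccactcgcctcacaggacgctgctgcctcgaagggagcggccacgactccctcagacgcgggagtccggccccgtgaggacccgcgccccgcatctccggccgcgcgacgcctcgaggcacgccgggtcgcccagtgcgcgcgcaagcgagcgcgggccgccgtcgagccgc
Parp4: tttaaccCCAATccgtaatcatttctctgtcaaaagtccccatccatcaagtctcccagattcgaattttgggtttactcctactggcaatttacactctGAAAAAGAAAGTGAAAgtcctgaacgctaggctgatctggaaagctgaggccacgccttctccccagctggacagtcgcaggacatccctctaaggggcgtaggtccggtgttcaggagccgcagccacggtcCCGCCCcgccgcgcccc

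The interferon-stimulated response element occurred in 1 of the 8 member windows, that of Parp4, and in 2.98% of all 32851 windows. The 2 matches in Parp4 overlap each other, from 150 to 141 and from 144 to 135 bases before the start. No member window held the gamma-activated site, which occurred in 7.02% of all windows. The E-box occurred in the Parp1 and Parp2 windows, 49 to 44 and 179 to 174 bases before the start, and in 6.02% of all windows. The GC box occurred in 4 member windows, those of Parp1, Parp2, Parp4 and Parp8, against 32.7% of all windows. The CCAAT box occurred in those of Parp3 and Parp4, against 33.8%. Neither the TATA box nor the cAMP response element half-site was found in a member window, against 12.4% and 6.47% of all windows. The Parp12 and Parp8 windows had G+C contents of 73.6% and 74.8%, the Parp4 window 54.4%, and the median of all windows was 52.4%. The Parp8 window lies within the annotated bounds of its gene, and those of Parp2, Parp6 and Parp16 overlap theirs in part. A match describes letters and is not evidence that a factor binds there.

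Across the family, 4 of 10 members were lower by 2-fold or more on the null array and none was 2-fold higher. The background was 11.9% of 12015 expressed genes past 2-fold downward and 5.09% upward. Parp3, Parp8, Parp14 and Parp9 were the 4 lower members, whereas Parp1 and Parp2 were higher by less than 2-fold. The median member differed by -0.43 log2 units and the median expressed gene by 0.10. All 10 members were expressed by the threshold, 9 of them on both arrays, and Parp8 through the wild-type array alone. Relative to the median of the stem cell markers, a scaling that lowers every gene by 0.67, 26.6% of expressed genes were past 2-fold downward and 0.633% upward, and the share of higher genes among those past 2-fold was 2.33% instead of 29.95%. The members were chosen with results of these arrays known, so their count is a description.

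**Figure D1:**
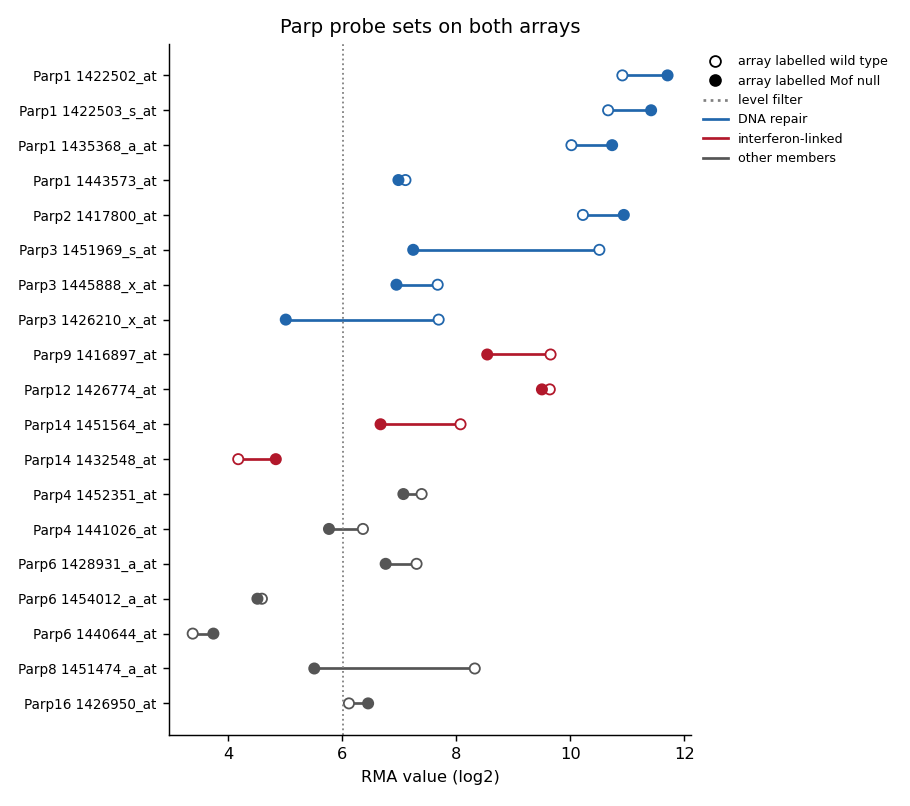
RMA values (log2) of all 19 Parp probe sets, with open circles for the wild-type array and filled circles for the null array; line colour gives the role and the dotted line the expression threshold of 6.02. The 3 brighter Parp1 probe sets and Parp2 lie to the right on the null array. Parp8 and the Parp3 probe sets at -3.27 and -2.68 lie far to the left. The remaining Parp3 probe set, at -0.72, lies less far to the left. Relative to the stem cell markers these directions hold, with Parp2 at 0.047.

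The DNA repair members did not move together. Parp1, the main break sensor, which accounts for most ADP-ribose chain synthesis, read 10.9 on the wild-type array and 11.7 on the null array on its brightest probe set. It was thus 1.73-fold higher, a difference of 0.79 log2 units. The second and the third Parp1 probe set by brightness differed by 0.75 and 0.71, while the dimmest read 7.11 and 6.98. Parp2, which shares break sensing with Parp1, read 10.2 and 10.9 on its single probe set and was 1.64-fold higher, by 0.72. Parp1 and Parp2 therefore differed by amounts 0.075 log2 units apart, less than the probe set spread of 0.33. The stem cell marker list, with a median of 0.67, was higher on the same array, and its part in their differences was not tested.

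Parp3 stood opposite to both. Its brightest probe set read 10.5 on the wild-type array and 7.24 on the null array, a difference of -3.27 or 9.62-fold. It ranked 6 from the lowest among 12015 expressed genes. Another Parp3 probe set went from 7.69 to 5.01, a difference of -2.68, and the remaining one from 7.67 to 6.95, a difference of -0.72. All 3 probe sets were lower, but by amounts 2.54 log2 units apart at the extremes, and all carry a suffix (_s_at or _x_at) that marks probes able to match more than 1 transcript. The difference between Parp1 and Parp3 was 4.06 log2 units. With 3 genes the median of the DNA repair group was 0.72, which describes Parp1 and Parp2 and not Parp3. The fibroblast and macrophage marker lists, with medians of -2.09 and -2.08, were lower on the same array as Parp3, and their part in its difference was not tested.

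Among the interferon-linked members, Parp9 and Parp14 were past 2-fold lower and Parp12 was not. Parp14, a large protein with macrodomains that acts as a coactivator of Stat6, read 8.07 and 6.67 on its brighter probe set and was 2.64-fold lower, by -1.40. Its other probe set was below the expression threshold on both arrays, at 4.17 and 4.83. Parp9, which works as a complex with the ubiquitin ligase Dtx3l, read 9.65 and 8.54 and was 2.16-fold lower, by -1.11. Parp12, a zinc finger member that restricts viruses, read 9.64 and 9.50, a difference of -0.14 that is smaller than the probe set spread and was -0.81 relative to the stem cell markers. Parp12 thus lay 0.97 above Parp9 and 1.27 above Parp14. Parp9 and Parp14 differed from each other by 0.29, also within that spread.

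Set side by side, the interferon-linked members had a median difference of -1.11 and the DNA repair members one of 0.72, which is 1.83 log2 units apart. The groups overlapped, because Parp3 at -3.27 lay below all 3 interferon-linked members, whose values ran from -1.40 to -0.14. The member farthest down was therefore a DNA repair gene. Parp9 and Parp14 were lower together with the fibroblast and macrophage markers, whose part in these differences was not tested.

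**Figure D2:**
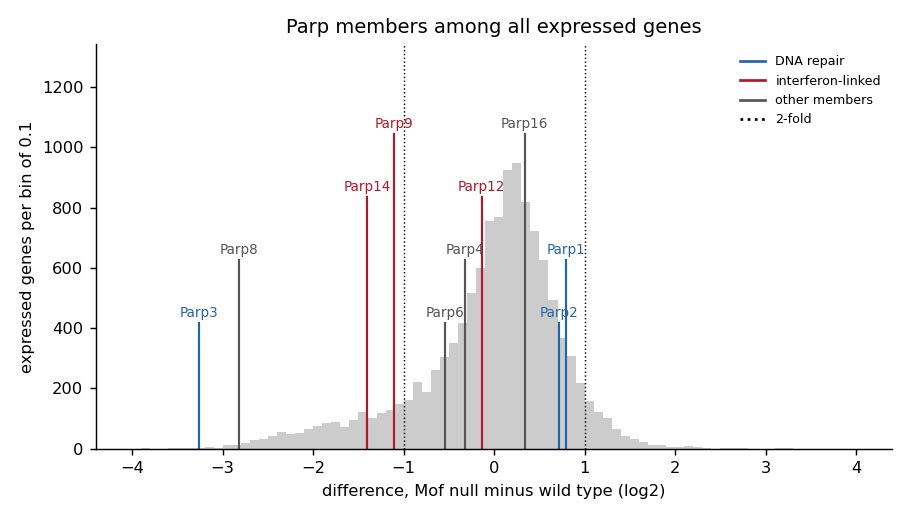
Histogram of the differences (log2, Mof null minus wild type) of 12015 expressed genes in grey, with the 10 Parp members as coloured lines whose heights only separate the labels; dotted lines mark 2-fold. Parp3 at -3.27 and Parp8 at -2.82 lie in the far lower tail, Parp14 and Parp9 just past 2-fold, and Parp1 and Parp2 in the upper shoulder; among the members only Parp16 changes sign under a scaling, the one relative to the stem cell markers.

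Of the remaining members, Parp8 had the largest difference. This little studied member, which attaches single units, read 8.32 on the wild-type array and 5.51 on the null array, a difference of -2.82 or 7.04-fold, at rank 41 from the lowest. The lower value was under the expression threshold, where RMA compresses differences. Parp8 has 1 probe set, so no second reading was available, and the marker lists of fibroblasts and macrophages moved the same way with a part in its difference that was not tested.

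The other three were under 2-fold as deposited. Parp6, related to Parp8, read 7.30 and 6.76, a difference of -0.54 that was past 2-fold lower, at -1.21, relative to the stem cell markers, and its 2 other probe sets were below the threshold on both arrays. Parp4, the vault member, read 7.39 and 7.07, a difference of -0.32, and its second probe set read 6.36 and 5.77. Parp16, the member anchored in the endoplasmic reticulum, read 6.12 and 6.45, a difference of 0.34 that became -0.33 relative to the stem cell markers. These values lie close to the expression threshold.

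Of 5 further family genes measured, Parp11, Tiparp, Tnks, Tnks2 and Zc3hav1, none was past 2-fold as deposited, and their median was 0.18. Relative to the stem cell markers all 5 were lower, with a median of -0.49 against -0.57 for expressed genes. Parp11 was past 2-fold lower there, at -1.20, beside 26.6% of expressed genes. Parp11, which attaches single units, went from 8.35 to 7.82, a difference of -0.53. Tnks2, a tankyrase that builds chains, went from 12.4 to 12.7, a difference of 0.33 that was -0.34 relative to the stem cell markers. Zc3hav1, an antiviral member without catalytic activity, differed by -0.10. Parp10 was not analysed here, as its probe set is annotated to several genes.

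Partners of the DNA repair members mostly lay on the side of Parp1 and Parp2. Of 15 expressed genes that act with these enzymes at DNA breaks, 14 were higher on the null array. This became 15 after quantile normalization and 12 after centring on the median gene or a lowess correction. It was 7 relative to the stem cell markers, a scaling under which the median expressed gene lay at -0.57 and the list median at -0.0093. Of all 12015 expressed genes 56.7% were higher as deposited. The list had 2 of 15 members at least 2-fold higher, against 5.09% of expressed genes, none 2-fold lower, and a median of 0.66 against 0.10. The stem cell marker list had a median of 0.67 on the same arrays, and its part in these values was not tested. Chd1l, a chromatin remodeller switched on by ADP-ribose chains, went from 9.40 to 10.5, a difference of 1.07. Xrcc6, which encodes the Ku70 end-binding protein, went from 9.32 to 10.3, or 2.01-fold higher, and was under 2-fold after centring or lowess correction. Hpf1, the factor that directs Parp1 and Parp2 to serine residues, differed by 0.67, close to the 0.72 of Parp2. Xrcc1 and Lig3, which seal single-strand breaks, differed by 0.30 and 0.53, both turning negative relative to the stem cell markers. Parp3 had no counterpart in this list, in which the lowest difference was that of Lig4 at -0.045, positive after quantile normalization.

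Partners of the interferon-linked members were mostly lower, as Parp9 and Parp14 were. Of 19 expressed genes of interferon signalling, 9 were at least 2-fold lower, against 11.9% of expressed genes, and none was 2-fold higher, with a median of -0.87. Relative to the stem cell markers the count was 14, against 26.6% of expressed genes. Ifi35 went from 11.2 to 8.65, a difference of -2.54, and the RNA sensor Ifih1 from 9.32 to 6.91, a difference of -2.41. The immunoproteasome gene Psmb8, the transcription factor genes Irf7 and Irf9, and the RNA sensor Ddx58 differed by -1.84, -1.53, -1.13 and -1.32. Of the interferon-gamma receptor genes, Ifngr2 differed by -1.40, with a second probe set at -0.082, and Ifngr1 by -1.06. Dtx3l, the partner of Parp9, went from 8.66 to 7.64, a difference of -1.02, while its second probe set differed by -0.55. Nearer to Parp12 lay Irf1 at -0.19, Ifnar1 at -0.072 and Psmb9 at -0.29. The kinase gene Tyk2 differed by 0.36 and Trim25 by 0.13, both negative relative to the stem cell markers and Trim25 also after lowess correction. The fibroblast and macrophage marker lists had medians of -2.09 and -2.08 on the same arrays, and their part in these values was not tested.

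**Figure D3:**
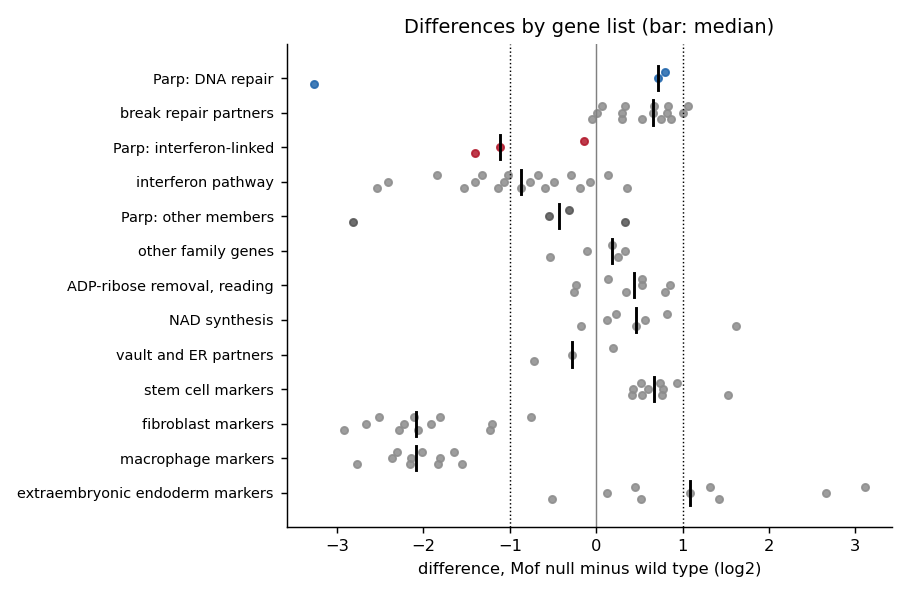
Differences (log2, Mof null minus wild type) of the expressed genes of each list, 1 point per gene on its brightest probe set, with a bar at the list median and dotted lines at 2-fold. Parp1 and Parp2 lie with the break repair partners (median 0.66, or -0.0093 relative to the stem cell markers), Parp9 and Parp14 within the interferon pathway genes (median -0.87), and Parp3 and Parp8 beyond the medians of the fibroblast and macrophage markers (-2.09 and -2.08).

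Genes that remove or read ADP-ribose and those that make NAD+ are given beside the 56.7% of all expressed genes that were higher as deposited. That share does not apply relative to the stem cell markers, where the median expressed gene lay at -0.57. Of 8 expressed genes of removal and reading none was past 2-fold, 6 were higher, and the median was 0.44, or -0.23 with 2 higher relative to the stem cell markers. Macrod2 and Oard1, which remove single ADP-ribose units, differed by 0.86 and 0.79. Parg, which degrades the chains made by Parp1, differed by 0.53, or -0.14 relative to the stem cell markers. Of 7 expressed genes of NAD+ synthesis 6 were higher, or 2 relative to the stem cell markers, with medians of 0.46 and -0.21. As deposited, only 1 gene was at least 2-fold higher, against 5.09% of expressed genes. That gene was Qprt, which makes NAD+ precursor from tryptophan breakdown, at 6.54 and 8.16, a difference of 1.62, with a second probe set at 1.31; it was under 2-fold, at 0.95, relative to the stem cell markers and was dropped by the level filter at percentile 75. With the mean of probe sets 2 of 6 genes of this list were past 2-fold higher, against 462 of 11038 expressed genes. Nampt, the rate-limiting enzyme of NAD+ recycling, differed by 0.82 on its brightest probe set and by 1.28 and 1.31 on the others. Mvp, the vault protein that holds Parp4, differed by -0.72, with a second probe set at -1.01. The stress sensor Ern1, a partner of Parp16, differed by -0.29, with a second expressed probe set at 0.37. Of the 3 vault and endoplasmic reticulum partners none passed 2-fold by its brightest probe set, and the median was -0.29. Mvp was past 2-fold lower without suffix probe sets, at -1.01, and relative to the stem cell markers, at -1.39, where the list median was -0.96.

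Neighbouring genes on the chromosome were compared with the members by position in RefSeq GRCm38.p6. Of 19 nearest protein-coding neighbours that are not members, 13 were expressed. Of these, 1 was past 2-fold lower and 2 past 2-fold higher, against 11.9% and 5.09% of expressed genes. Their median was 0.65, against 0.10 for expressed genes. Relative to the stem cell markers it lies below 0, where the median expressed gene lies at -0.57. The 1 lower gene, Dtx3l, is also among the interferon partners. Parp3 (chr9:106470322-106476949) starts 359 bases from the start of Rrp9, a nucleolar RNA-processing gene read on the other strand, and their promoter windows share 141 bases. Rrp9 went from 9.63 to 10.1, a difference of 0.50, while that of Parp3 was -3.27, so genes that begin on either side of the same short stretch differed in direction, except relative to the stem cell markers, which puts every difference under 0.67 below 0. Parp4 begins 129 bases from the annotated bound of Cenpj, a centriole gene on the other strand. The Cenpj promoter window (chr14:56571847-56572096) shares no bases with that of Parp4. Cenpj differed by 0.60 against -0.32 for Parp4. Parp8 has the distant neighbours Emb, at a difference of 0.98, and Isl1, which was below the expression threshold. Lin9, the neighbour of Parp1, differed by 0.65, and Ccnb1ip1, a neighbour of Parp2, by 1.27.

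The interferon-linked genes on chromosome 16 form a cluster. Parp14 (chr16:35831892-35871518), Dtx3l (chr16:35926515-35939027) and Parp9 (chr16:35938470-35972621) lie in a row, and the annotated bounds of Dtx3l and Parp9 overlap by 558 bases. All 3 were past 2-fold lower on their brightest probe sets, at -1.40, -1.02 and -1.11, while Dtx3l was under 2-fold, at -0.95, after quantile normalization. The genes that flank them were not lower: Hspbap1, on the side of Parp14, went from 9.03 to 10.2, a difference of 1.13, and Kpna1, an importin gene on the side of Parp9, differed by 0.28, which is below 0 relative to the stem cell markers. Parp12 lies apart on chromosome 6, between Tbxas1, at -0.66, and Kdm7a, at 0.75.

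**Figure D4:**
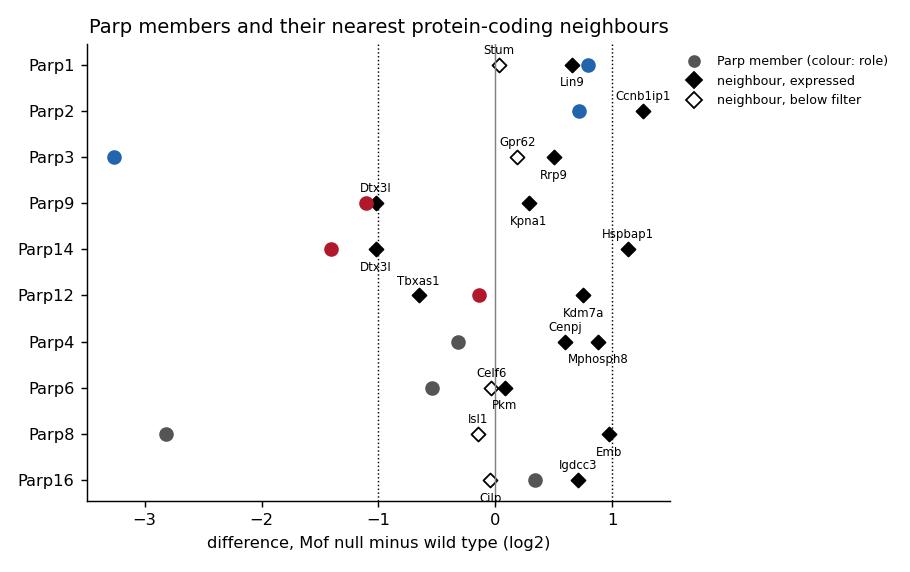
Differences (log2, Mof null minus wild type) of each Parp member (circles, blue for DNA repair, red for interferon-linked and grey for other members) and of its nearest measured protein-coding neighbours (diamonds, open where below the expression threshold); dotted lines mark 2-fold. Dtx3l at -1.02 lies with Parp9 and Parp14, whereas Rrp9 at 0.50 and Emb at 0.98 lie far above Parp3 and Parp8; relative to the stem cell markers all points move down by 0.67, which takes Rrp9 below 0.

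Among the members the directions were little affected by scaling. Centring on the median gene, lowess correction and quantile normalization changed the sign of none of the 10, and the scaling relative to the stem cell markers changed that of Parp16. Over all settings that kept it, Parp3 lay between -3.94 and -2.22 and Parp8 between -3.49 and -2.80. Parp9 lay between -1.78 and -1.08, and Parp12 between -0.81 and -0.14. Parp14 ran from -2.07 to -0.37, the latter as the mean of both its probe sets, which ends its 2-fold difference. Parp1 and Parp2 ran from 0.12 to 0.79 and from 0.047 to 0.72, the lower ends relative to the stem cell markers.

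**Figure D5:**
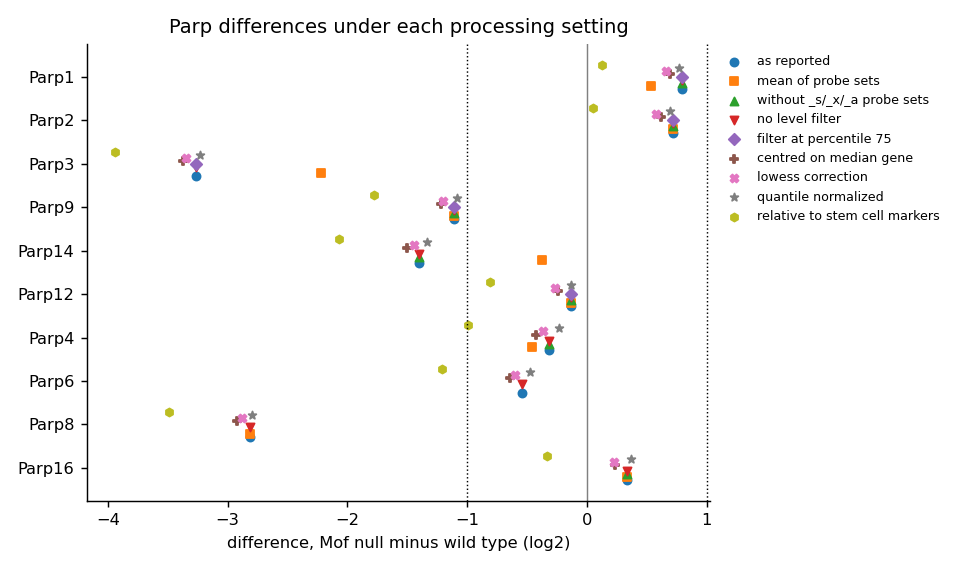
Differences (log2, Mof null minus wild type) of the 10 Parp members under each processing setting, 1 marker type per setting; a member that a setting drops has no marker there. Parp3, Parp8 and Parp9 stay past 2-fold lower wherever they were kept, Parp14 at -0.37 does not as a mean of probe sets, and Parp16 lies at -0.33 relative to the stem cell markers.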

How the data were processed

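The log2 values deposited by the authors, for 45101 probe sets on each array, come from RMA, for which the submitters' processing notes name affy and R 2.10.0. RMA corrects background, quantile-normalizes and summarises probes, so it hides a shift of most transcripts one way and compresses differences near the floor. That the scale is log2 was read off the range of the values. Whether RMA included other arrays is not stated, and detection calls were not used here. With 1 array per genotype, the number of arrays limits the precision.

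The 34945 probe sets with 1 symbol and 1 Entrez ID in the supplied platform annotation were named; 9211 of 45101 were not listed there. Differences, the 2-fold rule (an absolute log2 difference of 1) and medians were computed in Python 3.11.15 with numpy 2.4.6, pandas 2.3.3 and statsmodels 0.14.6, and the calling was tested on simulated data. No test was run. The members, lists and motifs were chosen with earlier results of these data known. The genes named are all members, list genes past 2-fold or leading their list, and nearest protein-coding neighbours. Zc3hav1, Hpf1, Xrcc1, Lig3, Lig4, Irf1, Ifnar1, Psmb9, Tyk2, Trim25, Parg, Nampt, Ptprc and Itgam were added after their values were seen. Alternatives were the mean of probe sets, leaving out the suffixes _s_at, _x_at and _a_at, no level filter or one at percentile 75, centring, lowess (span 0.3), quantile normalization, differences relative to the stem cell markers, thresholds of 1.5-fold and 4-fold, and leaving out the most changed group member. Promoter windows, neighbours and coordinates come from RefSeq GRCm38.p6.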

Additional observations from a re-analysis of the deposited data

How the results depend on the processing

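The count of 4 Parp members at least 2-fold lower became 2 without probe sets of suffix _s_at, _x_at or _a_at, which drops Parp3, Parp6 and Parp8, 2 with the filter at percentile 75, where 5 members were left, and 2 at 4-fold. It was 3 of 9 with the mean of probe sets and 5 relative to the stem cell markers, where Parp6 joined at -1.21. At 1.5-fold, 2 members were higher instead of none. The interferon-linked median of -1.11 became -0.37 with the mean of probe sets, -0.62 both under the filter at percentile 75 and without Parp14, its most changed member, and -1.78 relative to the stem cell markers, where the DNA repair median became 0.047. Of the break repair partners 2 were at least 2-fold higher; this was 1 with the mean of probe sets, 0 after centring, 0 after lowess correction, 0 relative to the stem cell markers (list median -0.0093), 8 at 1.5-fold and 0 at 4-fold. Of the interferon partners 9 were at least 2-fold lower, 14 relative to the stem cell markers (median -1.54), 8 after quantile normalization and 2 at 4-fold. The cause of these shifts was not tested beyond the fewer genes and other thresholds that the settings themselves set. Among all expressed genes, 1241 of 10352 were past 2-fold lower without suffix probe sets and 926 of 7691 at percentile 75. With the mean of probe sets 1082 of 11038 were lower and 462 higher. After quantile normalization 1382 of 12020 were lower. After centring and lowess correction 449 and 472 of 12015 were higher. Relative to the stem cell markers 26.6% were lower and 0.633% higher. The counts at 1.5-fold and 4-fold have no such share beside them and are not read as results about a list. No called value changed sign. No paired analysis was possible because there was 1 array per genotype, and no array could be left out. Signal near the expression threshold limits Parp4, Parp6, Parp8 and Parp16. It also limits Parp14, at 6.67 on the null array, and the Parp3 probe set that read 5.01 there, below the threshold.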
